A study of Mus musculus with 31 samples.

Results

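The cytosolic ribosomal protein genes of the mouse, which encode the proteins of the large (Rpl) and small (Rps) ribosomal subunits, were described across 31 microarrays of thymus and thymic tumors. Members were genes whose symbol was Rpl or Rps followed by digits, with an optional trailing a, x or l, or Rplp0, Rplp1 or Rplp2. Each gene was read by its brightest probe set that named a single gene. This gave 45 members, 24 of the large and 21 of the small subunit, of 18192 genes. Of the 80 protein-coding RefSeq genes that meet the symbol rule, 44 had such a probe set, so not all 45 members are among them. Another 28 of the 80 were read by probe sets shared between several genes and 8 by none, so Rpl5, Rpl10, Rpl10l, Rpl32 and Rplp1 are not among the members.

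The arrays came from tumors of NDR1-/- (KO, n = 7), NDR1+/- (HT, n = 7) and NDR1+/+ (WT, n = 5) C57BL/6 mice and from untreated normal thymus of the same genotypes (n = 4 each). NDR1 is the kinase encoded by Stk38. Tumor mice had received the alkylating mutagen N-ethyl-N-nitrosourea (ENU) at 100 mg/kg, and tumors were taken when they developed or 9 months after it, so ENU exposure, age and tumor cannot be told apart in any tumor against thymus comparison. Thymi were from 6 males and 6 females, and tumors from 2 males (HT tumor 04 and KO tumor 02) and 17 females. The titles name thymocytes and tumor cells and the source label names thymus, and the ages of the untreated mice and the part of Stk38 that is disrupted are not given in the sources used here. Whether each array was a separate animal is not stated either, so p-values measure the spread between these arrays. Stk38 signal in 3 of the 7 tumors labelled KO was above that of every WT thymus, so tumor genotypes are given as labelled.

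Ribosomal proteins assemble with ribosomal RNA in the nucleolus, and their genes are among the most highly transcribed of a growing cell. Their mRNAs begin with a run of pyrimidines, the 5′ terminal oligopyrimidine (TOP) motif, through which the kinase mTORC1 and the protein LARP1 control their translation. In the thymus, loss of Rpl22 is known to block the development of αβ T cells through p53, and free Rpl5 and Rpl11 bind Mdm2 and stabilise p53 when ribosome assembly fails. RNA abundance does not show translation, and in bulk samples fewer cells of a type and less RNA per cell cannot be told apart.

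The starts of the 9 members that were higher in tumors are shown first because the pyrimidine run is the feature by which these mRNAs are recognised. The windows are from RefSeq (GRCm38.p6) and lie, for Rpl37 at chr15:5116573-5116632 (plus strand), Rpl27a at chr7:109519155-109519214 (plus strand), Rpl38 at chr11:114668540-114668599 (plus strand), Rpl35 at chr2:39005112-39005171 (minus strand), Rps9 at chr7:3704001-3704060 (plus strand), Rps18 at chr17:33955646-33955705 (minus strand), Rps19 at chr7:24884552-24884611 (plus strand), Rps24 at chr14:24490638-24490697 (plus strand) and Rps25 at chr9:44407674-44407733 (plus strand). Each holds 40 bases before the first listed transcription start and 20 bases from it, 5′ to 3′ on the gene's strand, and capitals mark the longest uninterrupted run of C and T that overlaps the 15 bases on either side of the start.
Rpl37: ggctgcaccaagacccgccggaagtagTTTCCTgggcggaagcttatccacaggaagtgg
Rpl27a: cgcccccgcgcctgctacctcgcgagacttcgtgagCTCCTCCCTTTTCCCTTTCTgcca
Rpl38: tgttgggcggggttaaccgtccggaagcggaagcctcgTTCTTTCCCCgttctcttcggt
Rpl35: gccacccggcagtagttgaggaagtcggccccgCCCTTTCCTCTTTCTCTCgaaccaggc
Rps9: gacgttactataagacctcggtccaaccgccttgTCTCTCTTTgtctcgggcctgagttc
Rps18: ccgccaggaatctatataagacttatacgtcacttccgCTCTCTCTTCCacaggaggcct
Rps19: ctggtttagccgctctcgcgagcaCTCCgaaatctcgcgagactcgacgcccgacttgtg
Rps24: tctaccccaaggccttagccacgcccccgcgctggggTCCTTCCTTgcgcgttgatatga
Rps25: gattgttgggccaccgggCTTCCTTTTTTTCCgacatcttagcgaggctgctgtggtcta

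Promoter windows were available for 39 of the 45 members. A C and T run of at least 8 bases that overlaps the 15 bases on either side of the start was found in 19 of the 39 members (48.7%), against 17.4% of the 27025 genes with a window. It was found in 7 of the 9 members that were higher in tumors and in 12 of the other 30, and Rpl37 and Rps19 were the 2 higher members without it. The 30 include Rps16, whose signal was too low to be tested. Of the 9, only Rpl37 and Rpl38 kept their call in every setting that held them, and the split was not tested. Not all of the runs of at least 8 bases hold the annotated first base, and that of Rps25, for example, ends before it. The run held the first base in 12 of the 39 members (30.8%), 6 of them among the 9 higher members, against 3.47% of all genes with a window. In the whole window of 300 bases (250 before the start), CTTCCG on either strand, the core of the motif bound by ETS factors such as GABP, was found in 28 of 39 members (71.8%), against 17.2% of all windows. CACGTG, the E-box bound by Myc, was found in 3 of 39 members (7.69%), against 7.24% of all windows. TATAAA on either strand was found in 4 of 39 members (10.3%), against 14.2%. These matches describe letters and not bound sites.

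Most members gave some of the brightest signals on the arrays. Of the 45 members, 32 had a mean log2(intensity + 1) above 14, and 72 of the 14017 genes kept for testing did so. The 5 members with the highest means were Rpl13a (15.60), Rps29 (15.59), Rplp2 (15.33), Rps7 (15.19) and Rpl35 (15.18). The 5 lowest were Rps16 (2.98), Rpl3l (3.88), Rpl39l (3.96), Rps4l (4.21) and Rpl39 (5.56). Rpl3l and Rpl39l are near copies of Rpl3 and Rpl39 known for use in muscle and in testis. Rps16 was below the filter of 3.61 and was not tested, which left 44 members. Probe sets differ in how they bind, so these levels do not rank the mRNAs.

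All arrays shared 1 distribution of values, so a value near the top is in effect the gene's rank on its array, and differences there are compressed. Rpl13a, for example, ranked between 2nd and 8th of all probe sets on every array. The spread of bright members was small in both tissues. The pooled SD within groups had a median over the 32 bright members of 0.157 in tumors and 0.0615 in thymi, against 0.334 in tumors and 0.0862 in thymi for the other 40 genes with means above 14. Those 40 hold Rps3a1 (0.350 in tumors), Rpsa (0.230) and Fau (0.235), ribosomal protein genes that the symbol rule leaves out. The members and the other genes were not matched for level above 14, so level and gene class cannot be told apart in this contrast. Of the other genes, Tpt1 (mean 15.43) had 0.085 in tumors and Eef1a1 (15.10) had 0.087, while Tmsb10 (15.15) had 0.409. Rplp0 (0.533), Rps14 and Rpl7 were the bright members with the widest spread in tumors.

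**Figure D1:**
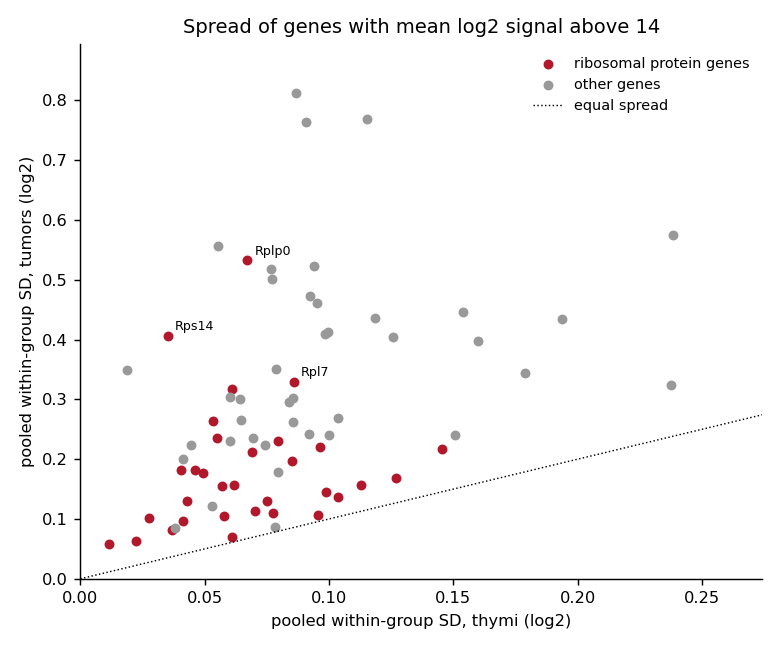
Pooled within-group SD in tumors (vertical axis, log2) against that in thymi (horizontal axis, log2) for the 72 genes with mean signal above 14. Each point is a gene, the 32 members are red, and all 32 lie on or above the dotted line of equal spread, with Rplp0 at 0.533 in tumors. Rps3a1, Rpsa and Fau, ribosomal protein genes outside the symbol rule, are among the grey points.

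The comparison of tumors with untreated thymus asks whether the ribosomal protein mRNAs differ with tumor development. Rpl37 and Rpl27a, both proteins of the large subunit, were more than 1 log2 unit higher in tumors, and Rps25, Rps9, Rps19, Rpl38, Rpl35, Rps24 and Rps18 were higher by 0.20 to 0.48. Rps4l, a near copy of Rps4x, was lower. In all, 10 of 44 members passed adjusted p under 0.05 in limma (22.7%), 9 higher and 1 lower, against 24.2% of the 14017 genes tested (11.6% higher and 12.6% lower). The median difference of the 44 members was 0.03 and that of all genes 0.05. The members were thus called about as often as other genes, and the 32 bright ones had differences between -0.40 and 0.38.

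The log2 signal of Rpl37 was 10.69, 11.61 and 12.30 (lowest, median and highest) in the 19 tumors, against 9.92, 10.46 and 10.84 in the 12 thymi. All tumors but HT tumor 04, 1 of the 2 males, were above the highest thymus. Only 1 single-gene probe set read Rpl37, so every setting that held this gene used it. That probe set carries the _x suffix, so the setting with probe sets without a suffix did not hold Rpl37. Whether it also binds near-identical copies was not tested. Rpl37 was higher by 1.30 (SE 0.149, limma adjusted p = 4.8e-07). It averaged 11.65 ± 0.260 in tumors labelled KO (SD, n = 7), 11.51 ± 0.512 in HT tumors (n = 7) and 11.73 ± 0.205 in WT tumors (n = 5), against 10.45 ± 0.422, 10.33 ± 0.351 and 10.51 ± 0.259 in KO, HT and WT thymi (n = 4 each). The difference was 1.28 in KO, 1.27 in HT and 1.34 in WT, with limma adjusted p of 0.00106, 0.00128 and 0.00195. Rpl37 was the one member called within a genotype, 1 of 44 members (2.27%) in each, against 4.76% of all genes in KO, 3.5% in HT and 6.56% in WT.

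Rpl27a had a log2 signal of 8.01, 9.55 and 10.89 in tumors, against 7.29, 8.61 and 9.71 in thymi. The ranges overlapped widely, with 9 of 19 tumors above the highest thymus. Rpl27a was higher by 1.03 (SE 0.323, limma adjusted p = 0.0215). Without KO thymus F_01, which had the lowest value, it was higher by 0.80 and its adjusted p was 0.0843.

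Rps19, a small subunit protein whose loss in humans causes Diamond-Blackfan anemia, had 14.02, 14.56 and 14.87 in tumors, against 14.16, 14.28 and 14.37 in thymi. It was above the highest thymus in 16 of 19 tumors and higher by 0.31 (SE 0.0845, limma adjusted p = 0.0079). Rpl38, which in mice is needed for translation of Hox mRNAs, had 14.69, 14.92 and 15.03 in tumors, against 14.53, 14.65 and 14.72 in thymi. It was above the highest thymus in 18 of 19 tumors and higher by 0.25 (SE 0.0611, limma adjusted p = 0.0040). The separation of Rpl38 between tissues was thus as complete as that of Rpl37, at a smaller size. Rps19 and Rpl38 also had 1 single-gene probe set each, with the suffix _a for Rps19 and _x for Rpl38.

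Rps24 was higher by 0.20 (limma adjusted p = 0.0197), and its 6 probe sets all gave a difference above 0, with 5 of them called. Rpl35 was higher by 0.22 (limma adjusted p = 0.0124), and its 6 probe sets all gave a difference above 0, with 4 called. Rps18, often used as a reference gene, was higher by 0.20 (limma adjusted p = 0.0424) and 1 of its 6 probe sets was called when all probe sets were tested. Rps25, which viral internal ribosome entry sites depend on, was higher by 0.48 (limma adjusted p = 0.0497) and had 1 probe set. Rps9 was higher by 0.38 at its brightest probe set (limma adjusted p = 0.0036), but its other 2 probe sets gave -0.25 and 0.01 with neither called, so Rps9 is uncertain. The call was lost in 29 of 42 alternative settings for Rps25 and in 17 of 42 for Rps18.

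Rps4l had a log2 signal of 3.14, 3.45 and 5.72 in tumors, against 3.69, 4.65 and 6.17 in thymi, close to the low end of the array, and its tumor median was below the filter value of 3.61. It was below the lowest thymus in 13 of 19 tumors and fell by 0.95 (SE 0.312, limma adjusted p = 0.0273). Its 4 highest tumors, HT tumor 01 (5.72), KO tumor 06 (5.31), HT tumor 03 (5.27) and KO tumor 04 (4.78), were the 4 with the highest mean of B cell markers. Without them Rps4l fell by 1.22. Its call was lost in 6 of 42 alternative settings, among them female arrays only, where it fell by 0.77 (limma adjusted p = 0.191). With a pseudocount of 16 it fell by 0.53 and was still called.

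**Figure D2:**
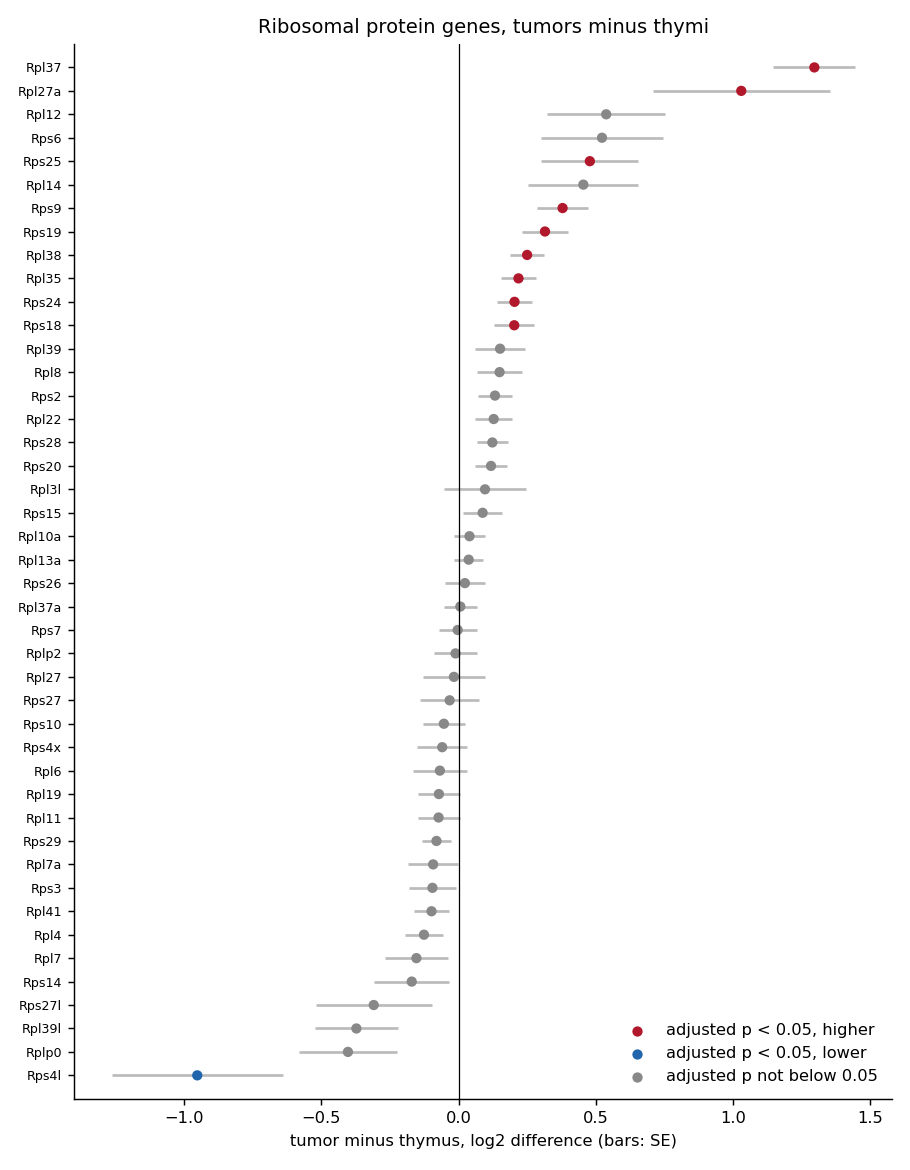
Tumor minus thymus difference in log2 signal (horizontal axis) of the 44 tested members, with bars of 1 SE, in order of size. Rpl37 (1.30) and Rpl27a (1.03) stand at the top, Rps4l (-0.95) at the bottom, and most members lie close to 0.

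Of the members with roles in thymus or p53 control, Rpl22 gave 0.13 (adjusted p = 0.169) at its brightest probe set, Rpl11 gave -0.07 and Rps6, the substrate of S6 kinase, gave 0.52 (adjusted p = 0.0881), and none of these passed in limma. Probe sets of Rpl22 differed in size, with 1.06 at a dimmer one (mean 10.05), which was called with limma adjusted p = 0.00741 over all probe sets. The same was seen for Rpl27, where the brightest probe set gave -0.02 and the other 2 gave 0.47 and 0.59, both called, and for Rps3, where a dimmer probe set gave 1.55 and the brightest -0.10. Of the 20 members with more than 1 probe set above the filter, 11 had all differences of 1 sign and 9 had both signs. Results for these members are therefore uncertain between probe sets. Many of these probe sets can bind near-identical copies, since ribosomal protein genes have many processed pseudogenes.

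Levels of cell type markers differed between the tissues beside these values. Of 10 markers of double-positive thymocytes, 6 were called lower in tumors and 0 higher, and the mean of the list lay between 7.22 and 11.41 in tumors, against 11.96 to 12.12 in thymi. Of 9 thymic epithelium markers 6 were lower, and of 9 stroma markers 5 were higher, among them Col1a2 (4.17), Col3a1 (3.17) and Pdgfrb (5.03). Of 8 T cell markers 4 were lower, of 11 B cell markers 1 was higher and 1 lower, of 13 myeloid markers 1 was higher and 1 lower, and of 2 erythroid markers 1 was lower. The part of these markers in the differences of the members was not tested. For the B cell markers the settings without the 4 tumors highest in them and the slopes on their mean are given.

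**Figure D3:**
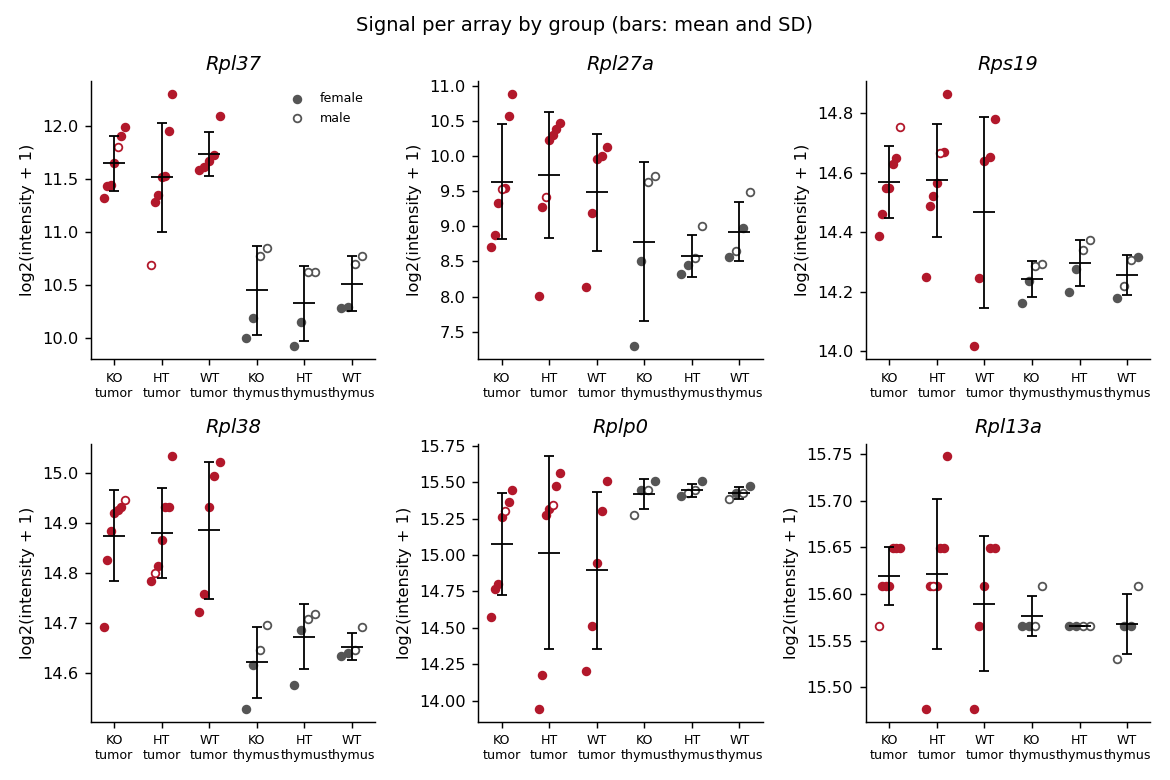
Log2(intensity + 1) on each array (vertical axes) of 6 members by group, KO, HT and WT tumors and then KO, HT and WT thymi, with open circles for males and bars for the mean and SD. Rpl37 and Rpl38 separate tumors from thymi in 18 of 19 tumors, Rplp0 spreads downwards in tumors, and Rpl13a lies between 15.48 and 15.75, where values are compressed.

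Rplp0, the acidic stalk protein that is widely used as a reference gene, had 13.94, 15.27 and 15.57 in tumors, against 15.27, 15.44 and 15.51 in thymi. Below the lowest thymus were 9 of 19 tumors, and its SD was 0.507 in tumors and 0.0618 in thymi. Its difference of -0.40 (SE 0.180) did not pass in limma (adjusted p = 0.103). Rpl13a, another common reference gene, lay between 15.48 and 15.75 over all arrays at its brightest probe set, where values are in effect ranks near the top, while its 4 probe sets gave tumor against thymus differences of -0.21 to 0.38, 1 of them called higher.

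Each array carries probe sets at both ends of the actin and Gapdh transcripts, and the log2 ratio of their 3′ signal to their 5′ signal is higher where RNA is more truncated. It lay between 0.185 and 4.87 in tumors, with a median of 0.974, against 0.261 to 0.499 in thymi. HT tumor 07 (4.87) and KO tumor 07 (3.17) had the highest ratios. Over the 19 tumors, with genotype and sex in the fit, Rplp0 fell by 0.44 per SD of the ratio (SE 0.0733, limma adjusted p = 0.0014). Rps27l, a near copy of Rps27 that is a p53 target, fell by 0.48 per SD (adjusted p = 0.0036), Rps14 by 0.29 (adjusted p = 0.0055) and Rpl7 by 0.21 (adjusted p = 0.0303) in the same limma fit. These 4 of 44 members were called lower and none higher (9.09%), against 22.9% of all genes. With the ratio as a covariate, the tumor against thymus difference of Rplp0 was -0.08 and that of Rps27l 0.05, while that of Rpl37 was 1.17 (limma adjusted p = 4.1e-06). With this covariate the calls of Rpl27a (0.69, adjusted p = 0.136), Rps25 (0.29, adjusted p = 0.266) and Rps4l (-0.85, adjusted p = 0.0864) were lost in limma.

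**Figure D4:**
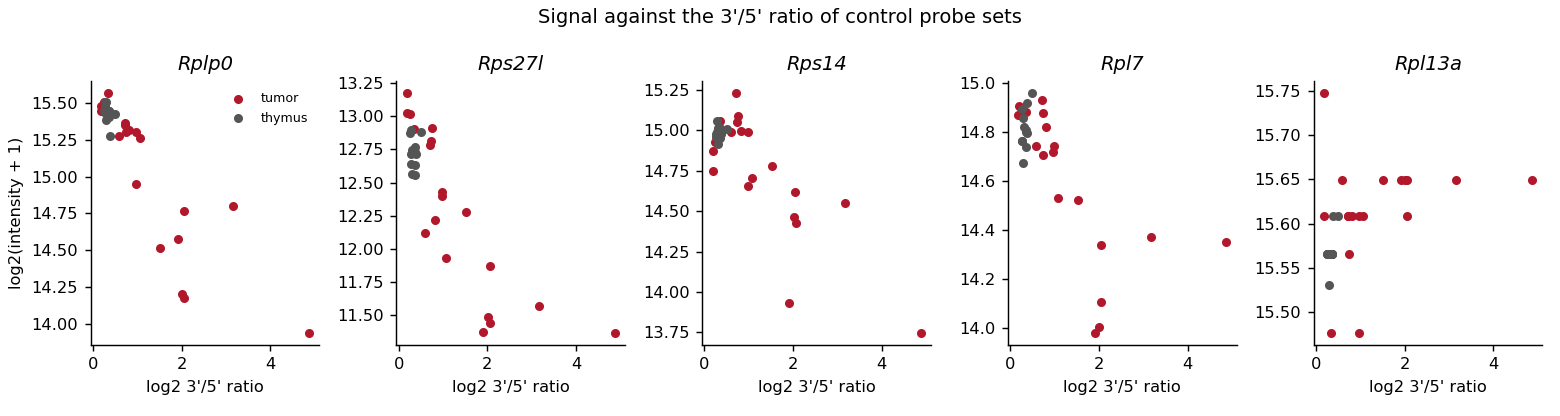
Log2(intensity + 1) of 5 members (vertical axes) against the log2 3′/5′ ratio of control probe sets (horizontal axes), 1 point per array, tumors red and thymi grey. Rplp0, Rps27l, Rps14 and Rpl7 are lower in tumors of high ratio, down to 13.94 for Rplp0 in HT tumor 07, and Rpl13a lies near the top of the scale, where differences are compressed.

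The genotype comparisons ask whether the members differ with NDR1 dose. The signal of Stk38 itself was read first, and the KO minus WT difference in thymi was -0.94 (limma adjusted p = 0.00111), while in tumors the KO minus WT difference was -0.81 and did not pass (adjusted p = 0.874). Stk38 had 8.73, 11.47 and 13.08 (lowest, median and highest) in tumors labelled KO, against 11.38, 12.42 and 13.04 in tumors labelled WT. Of the 7 tumors labelled KO, 3 (KO tumors 03, 04 and 06) were above the highest WT thymus (12.03), so these 3 went against the direction of the label and the tumor genotype comparisons rest on the labels alone. The disrupted part of the gene is not given, so whether this probe set reads it is not known. No member passed between genotypes in thymi or in tumors. In limma, 0 of 44 members were called for KO against WT thymi, against 0.185% of all genes, and 0 of 44 for HT against WT thymi, against 0.0214%, and 0 of 44 between KO and HT thymi, against 0.0571%. At an unadjusted p under 0.05 the counts were 0, 2 and 2 members, against 5%, 6.75% and 8.4% of all genes. Between tumor genotypes 0 of 44 members and 0 of 14017 genes (0%) were called in each comparison, and at an unadjusted p under 0.05 the counts were 1 member for KO against WT (Rps27, 0.37; 3.37% of all genes), 0 for HT against WT (2.78%) and 0 comparing KO with HT (1.1%). In the test of whether the tumor against thymus difference differed between genotypes, 0 of 44 members and 0 of 14017 genes (0%) passed, and 0 members had an unadjusted p under 0.05, against 0.849% of all genes for KO minus WT, 1.05% for HT minus WT and 0.521% for KO minus HT. These designs had few arrays, and a missed threshold does not show that genotypes are alike.

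Stk38 lies on chromosome 17, where 6 members also lie. For KO against WT thymi, Rps2 differed by -0.01, Rpl10a by 0.00, Rps10 by -0.01, Rps18 by -0.02, Rps28 by 0.04 and Rpl3l by 0.05, none past the threshold. For HT against WT thymi these 6 differences lay between -0.04 (Rps28) and 0.20 (Rpl3l). The 44 members as a whole had a median difference of -0.01 for KO against WT thymi, with Rpl39l at 0.42 (SE 0.255) the farthest from 0.

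Male and female thymi were compared because the thymus differs between the sexes. Rpl37, Rps27, Rpl39, Rps9 and Rps27l were higher in males, and none was called lower. In limma 5 of 44 members were called (11.4%), against 25.9% of all genes. Differences were below 0 in 12 of 44 members. Every male thymus was below every female thymus for Rplp2, Rpl4, Rpl7a and Rps2, with differences of -0.17 to -0.14 that did not pass the threshold. Rpl7 lay the other way, with 14.81 to 14.96 in male thymi, against 14.68 to 14.80 in female thymi, and was not called. How many of all genes lacked overlap was not counted. With eBayes trend and robust 4 members were called lower in males, and with a pseudocount of 16 there were 3. With that pseudocount 27.6% of all genes were called in either direction. The share of all genes with eBayes trend and robust is not given here. Rpl37 had 10.62, 10.73 and 10.84 (lowest, median and highest) in the 6 male thymi, against 9.92, 10.17 and 10.29 in the 6 female thymi, without overlap, and was higher by 0.58 (SE 0.0678, limma adjusted p = 0.000269). Rps27 had 6.96, 7.18 and 7.51 in male thymi, against 6.55, 6.78 and 6.85 in female thymi, also without overlap, and was higher by 0.48 (limma adjusted p = 0.0060). Rpl39, which lies on the X chromosome, had 5.56, 5.65 and 5.76 in male thymi, against 5.17, 5.38 and 5.54 in female thymi, and was higher by 0.28 (limma adjusted p = 0.0128). Rps4x, the other member on X, had a median of 15.04 in male and 14.99 in female thymi and was not called.

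Rps9 was higher in males by 0.20 and Rps27l by 0.16 (limma adjusted p of 0.0366 and 0.0438), with overlap between the sexes. The Rps9 difference reversed with probe sets without a suffix, where another probe set is read, so it is uncertain. Rpl22l1, the near copy of Rpl22 that substitutes for it, had 13.41, 13.50 and 13.57 in male thymi, against 13.01, 13.12 and 13.28 in female thymi, and was higher by 0.35. Beside these differences, 8 of 9 thymic epithelium markers were lower in males, with a list mean of 5.22 ± 0.230 in male thymi (SD, n = 6), against 7.51 ± 0.537 in female thymi (n = 6), and 7 of 13 myeloid and 3 of 9 stroma markers were lower. The part of these markers in the sex difference was not tested. In female arrays alone, an alternative added after seeing the data, Rpl37 was 1.53 higher in tumors (limma adjusted p = 1.0e-06), and 4 members were called higher (Rpl37, Rpl27a, Rps9 and Rpl38) and none lower, 4 of 44, against 10.5% of all genes called in either direction.

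**Figure D5:**
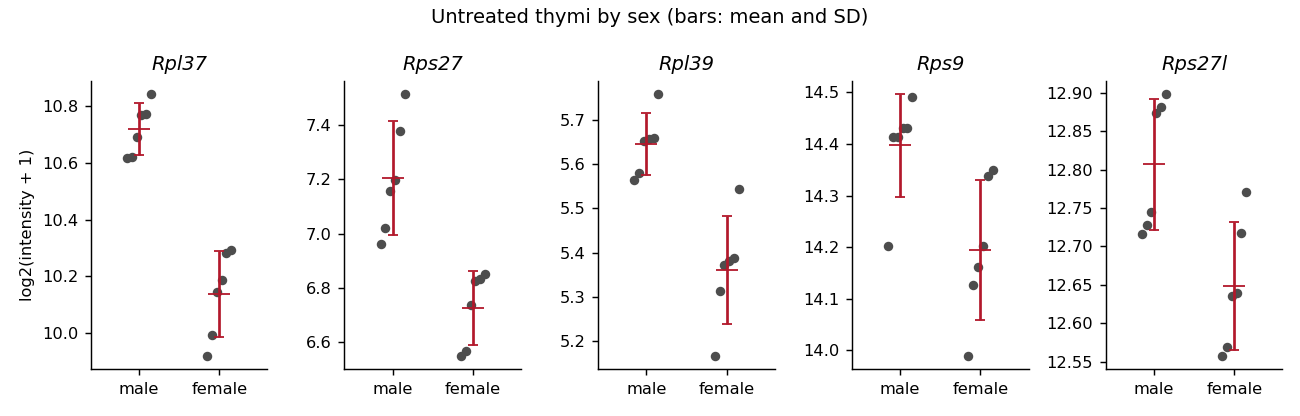
Log2(intensity + 1) (vertical axes) of 5 members in the 6 male and 6 female thymi, 1 point per array, with the mean and SD. The male values of Rpl37, Rps27 and Rpl39 lie wholly above the female values.

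Across the 19 tumors the members were also set against Myc, a transcription factor that drives ribosome production, and against the mean of the B cell markers. Myc was itself 0.87 higher in tumors than in thymi (limma adjusted p = 0.0263), with a signal of 8.97 to 12.14 in tumors, against 9.50 to 10.46 in thymi. With Myc, Rpl14 rose by 0.44 per SD (SE 0.127, limma adjusted p = 0.0260) and Rps4l fell by 0.61 per SD (SE 0.174, adjusted p = 0.0242). These were 2 of 44 members (4.55%), against 16.2% of all genes. Without KO tumor 04 neither was called, with Rpl14 at 0.35 (limma adjusted p = 0.112) and Rps4l at -0.58 (limma adjusted p = 0.0611). The call of Rpl14 was also lost without KO tumor 05 and without KO tumor 06, and that of Rps4l without KO tumor 06. Of the 76 mitochondrial ribosomal protein genes, 21 were called higher with Myc and 0 lower (27.6%). With the B cell marker mean, Rps4l rose by 0.70 per SD (SE 0.142, limma adjusted p = 0.00251), 1 of 44 members (2.27%), against 18.5% of all genes. The 4 tumors highest in B cell markers were low in Myc. They had 8.97 (KO tumor 06), 9.37 (KO tumor 04), 9.79 (HT tumor 01) and 10.13 (HT tumor 03), against a tumor median of 11.01. Each measure was fitted alone, so the slopes on Myc and on B cell markers cannot be told apart here.

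Genes that act with the ribosomal proteins were read in the same tumor against thymus fit, where 24.2% of all genes were called. Of 17 genes on a list of other TOP mRNAs, 7 were higher and 0 lower (41.2%), with a list median of 0.22. Eif4b (0.54), Eif3e (0.70), Hnrnpa1 (0.61) and Pabpc1 (0.43) had the smallest p. Of 15 genes of mTORC1 and TOP control, 3 were higher and 2 lower, among them Larp1 (0.76), which binds TOP mRNAs, Deptor (2.61), an inhibitor of mTOR, Maf1 (-0.45), a repressor of RNA polymerase III, and Rheb (-0.37), the activator of mTORC1.

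Of 18 chaperones and maturation factors of ribosomal subunits, 6 were higher and 1 lower. Tsr1 (1.36) and Nob1 (0.50) act in small subunit maturation, and Rrs1 (0.82) and Grwd1 (0.57) in that of the large subunit, with Grwd1 the chaperone of Rpl3. The 1 lower was Eif6 (-0.57), which keeps the subunits apart. Of 7 genes of the p53 checkpoint, Cdkn1a was higher (1.07) and no other was called. Of 9 transcription factors of ribosomal protein genes, Myc was higher and Yy1 (-0.69), Tbp (-0.58) and Gabpb1 (-0.48), a subunit of the ETS factor GABP, were lower. Rpsa, a ribosomal protein of another naming, was higher by 0.32 and Fau, whose product is fused to a ubiquitin-like protein, gave -0.05. The near copies Rpl22l1 (0.07) and Rpl7l1 (0.03) were not called. Of 76 mitochondrial ribosomal protein genes, 8 were higher and 6 lower (18.4%), with a median of -0.14.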

How the data were processed

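Total RNA was hybridised to Affymetrix mouse 3′ expression arrays, although the labels' labelling protocol names a whole-transcript assay. The deposited values were intensities made by the authors with GCRMA, per the submitters' processing notes, 1 per probe set and array on a linear scale. The sources used here do not give its version. Gene names came from the supplied probe annotation. After log2(value + 1), each gene took its single-gene probe set of highest mean. Genes whose chosen probe set was above the 25th percentile of the means of all 34944 single-gene probe sets were kept (14017 of 18192). Groups were compared with limma 3.58.1 in R 4.3.3 (lmFit, eBayes, Benjamini-Hochberg over all genes kept, threshold 0.05), with sex as a covariate, in fits of all 31 arrays, of thymi or of tumors. Slopes are per SD of the measure over the tumors. The fits were tested on simulated data. Members, lists and tests were chosen with earlier results of these data known. Genes were named by a fixed rule: a set of members always, the largest changes past the threshold, the smallest p where none passed, members on the chromosomes of Stk38 and X, and up to 4 of each other list. The alternatives tried are given in the closing section. The number of arrays limits the precision.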

Additional observations from a re-analysis of the deposited data

Results flagged for a closer look

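Single arrays that stood apart from the rest of their group were looked for in 125 groups of 4 to 7 arrays over 21 named members. Chance flags about 1 in 20 groups, and 4 arrays stood apart. Rpl37 was 12.09 in WT tumor 05, against 11.72 in the next highest of 5 arrays. Rps18 was 15.29 in HT tumor 06, against 14.86 in the next of 7. Rps4l was 4.08 in WT tumor 03, against 3.45 in the next of 5. Rpl13a was 15.61 in KO thymus M_02, while the other 3 arrays of its group shared the value 15.57.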

How the results depend on the processing

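Counts below are members called in limma. Under the other settings tried, 1 of them added after seeing the data (female arrays only), genotype comparisons called no member. For tumor against thymus (9 higher, 1 lower), the higher count was 3 with probe sets without a suffix, where 23 members were tested and Rpl37, Rpl38 and Rps19 were not among them, and 4 in female arrays only. The lower count was 0 in female arrays only, 2 with the mean of all probe sets and without the 4 tumors highest in B cell markers, and 3 without the sex covariate and with array weights. Of all genes, 23.5% were called in either direction with probe sets without a suffix and 25.9% with the mean of all probe sets. Without the sex covariate 35.7% of all genes were called and with array weights 46.3%, against 24.2% in the main fit. Leaving out single arrays gave 5 to 10 higher, 5 without KO thymus F_01, and 0 to 2 lower. Rpl37 and Rpl38 kept their call in the 41 alternatives that held them, Rps25 lost it in 29 of 42 and Rps18 in 17 of 42. Rpl27a, Rps9, Rps19, Rpl35 and Rps24 each lost it in at least 1 alternative. As Rpl37 and Rpl38 have 1 single-gene probe set each, these alternatives read no other probe set of them.

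Within genotypes (1 higher, 0 lower each), KO had 2 higher without the filter, with the mean of probe sets, with eBayes trend and robust, with the 3′/5′ ratio as covariate and without the B cell-rich tumors, 3 with pseudocount 16 and 4 with array weights. HT had 3 with array weights. WT had 2 with pseudocount 16, with the mean of probe sets, with eBayes trend and robust and without the B cell-rich tumors, and 5 with array weights. With array weights 17.6% of all genes were called in KO, 15.9% in HT and 30.5% in WT. In KO the share was 3.46% without the filter, 5.21% with the mean of probe sets, 4.87% with pseudocount 16 and 4.52% with eBayes trend and robust. In WT it was 6.65% with pseudocount 16, 7.05% with the mean of probe sets and 6.41% with eBayes trend and robust. The main fit called 4.76% in KO and 6.56% in WT. Shares for the other settings are not given here. Lower counts were 1 in KO and in HT without the B cell-rich tumors and 1 in WT with array weights. Leaving out single arrays gave 1 to 1 higher in each, and 0 to 1 lower in HT.

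For male against female thymi (5 higher, 0 lower), eBayes trend and robust gave 9 higher and 4 lower. Lower counts were 3 with pseudocount 16 and with probe sets without a suffix, 2 without genotype in the fit and 1 with the mean of probe sets. In these settings, in that order, 27.6%, 24.6%, 26.3% and 26.4% of all genes were called in either direction, against 25.9% in the main fit. The share with eBayes trend and robust is not given here, so its counts are not set against all genes. Leaving out single arrays gave 3 to 5 higher. Rps9 reversed to -0.0962 with probe sets without a suffix, where another probe set is read.

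For the 3′/5′ ratio (4 lower, 0 higher), the lower count was 8 without the filter, with pseudocount 16, without the sex covariate and with eBayes trend and robust, and 2 with probe sets without a suffix, and the higher count was 1 with pseudocount 16, with probe sets without a suffix and with array weights. For this ratio 17.3% of all genes were called without the filter, 23.5% with pseudocount 16 and 25.5% without the sex covariate. The share was 21.6% with probe sets without a suffix and 25.2% with array weights, against 22.9% in the main fit. Leaving out single arrays gave 3 to 7 lower and 0 to 1 higher. For Myc (1 higher, 1 lower), the higher count was 3 with array weights and 2 without the filter, with pseudocount 16, with the mean of probe sets, with probe sets without a suffix, without the sex covariate and with eBayes trend and robust. With Myc 34.1% of all genes were called with array weights and 20.7% without the sex covariate, against 16.2% in the main fit. The share was 12% without the filter, 16.1% with pseudocount 16, 17.3% with the mean of probe sets and 15.5% with probe sets without a suffix. Leaving out single arrays gave 0 to 2 higher and 0 to 1 lower, with 0 of both without KO tumor 04. For B cell markers (1 higher, 0 lower), the higher count was 2 with array weights, and the lower count was 1 without the filter, with pseudocount 16 and with eBayes trend and robust, 2 with the mean of probe sets and with probe sets without a suffix, 3 without the sex covariate and 4 with array weights. With these markers 34.5% of all genes were called with array weights and 21.9% without the sex covariate, against 18.5% in the main fit. The share was 21% with the mean of probe sets, 17.8% with probe sets without a suffix, 14.1% without the filter and 18.4% with pseudocount 16. Leaving out single arrays gave 0 to 1 lower. For these slopes the share of all genes with eBayes trend and robust is not given here. The causes were not tested.

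With the replicate block, genotype comparisons in thymi and tumors called 0 members, as without it. Deviations of same-numbered thymi correlated at 0.386 to 0.582 in all 12 pairs, but the numbers carry sex, and with sex taken out they lay between -0.0585 and 0.204, above 0.1 in 10 of 12 pairs. Taking sex out makes the _01 and _02 pairs of the same sex and genotypes give the same value, so these 12 are not separate checks. As not every pair was above 0.1, the numbers were not taken as pairs. Same-numbered tumors correlated above 0.1 in 3 of 17 pairs.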
